A study of Mus musculus with 2 samples.

Results

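The genes described here are the collagen chains: every protein-coding gene whose symbol has the form Col, a type number, the letter a and a chain number. The rule uses names only and took 44 genes of the 55536 annotated genes in the tables, or 44 of 22015 protein-coding genes encoded in the nucleus. By class, 11 are fibrillar chains (types I, II, III, V, XI, XXIV and XXVII), 6 are the type IV chains of basement membranes, and 27 belong to other types. Their levels were measured by total RNA-seq in gastrocnemius, the large calf muscle, in 2 samples taken to come from 2 male mice. The mice were of the B6CASTF1/J strain, a first-generation cross written B6Cast F1 in the labels, at 25 days of age. For each animal, 1 library was made from 300 ng of RNA with ERCC spike-ins, which are synthetic control RNAs. No treatment, genotype contrast or second age was included, so the data describe 1 group and the spread between its 2 libraries.

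Collagens are the main structural proteins of connective tissue. Each chain carries stretches in which glycine recurs as the first residue of each triplet (Gly-X-Y repeats), and such chains wind around each other into a helix that is secreted. Fibrillar collagens align into the load-bearing fibrils of tendon and of the connective tissue sheaths of muscle, type IV forms the sheet-like network of the basement membrane around each muscle fibre and capillary, and type VI forms beaded filaments between them. In skeletal muscle, fibroblasts and the tenocytes of tendon make most fibrillar collagen, and muscle fibres, endothelial cells and pericytes are surrounded by type IV collagen.

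Both libraries showed the labelled tissue. The muscle fibre genes Acta1 (22842 TPM on average, rank 1 among nuclear protein-coding genes), Mylpf (rank 2), Ckm (rank 3) and Tnnt3 (rank 4) led the tables. The libraries of animals 1 and 2 held 35098487 and 37428588 expected counts, with 0.543% and 0.573% in spike-ins. The labels give the tissue samples different numbers but the same donor entry, so the numbering alone marks them as separate animals. They were treated as 2 animals throughout. With 2 animals in 1 group, the smallest p an exact test over animals allows is 0.5. The animals were therefore compared as libraries, with an exact binomial test whose error is sampling error alone; its p-values describe these libraries, not a condition.

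The repeat that defines the family can be read in the coding exons, and the classes differ in it. The exons below are taken from the GENCODE M21 transcripts (mm10) to show the repeat in the most abundant fibrillar chains, in a minor fibrillar chain, in a type VI chain and in a type IV chain where it breaks. Each is written 5′ to 3′ on the coding strand from its first codon, with codons for glycine (GGN, where N is any base) in capitals. They are exon 8 of Col1a1 at chr11:94939904-94939957 (plus strand), exon 8 of Col1a2 at chr6:4515481-4515534 (plus), exon 6 of Col3a1 at chr1:45325360-45325413 (plus), exon 15 of Col11a2 at chr17:34051480-34051533 (plus), exon 9 of Col6a1 at chr10:76719623-76719676 (minus) and exon 25 of Col4a1 at chr8:11226950-11227141 (minus), counting coding exons only.
Col1a1: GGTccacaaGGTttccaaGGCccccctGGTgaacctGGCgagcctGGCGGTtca
Col1a2: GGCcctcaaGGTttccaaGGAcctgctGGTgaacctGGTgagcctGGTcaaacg
Col3a1: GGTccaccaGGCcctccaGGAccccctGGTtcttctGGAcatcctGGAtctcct
Col11a2: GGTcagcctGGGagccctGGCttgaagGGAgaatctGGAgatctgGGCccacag
Col6a1: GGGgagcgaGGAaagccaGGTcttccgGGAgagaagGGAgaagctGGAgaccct
Col4a1: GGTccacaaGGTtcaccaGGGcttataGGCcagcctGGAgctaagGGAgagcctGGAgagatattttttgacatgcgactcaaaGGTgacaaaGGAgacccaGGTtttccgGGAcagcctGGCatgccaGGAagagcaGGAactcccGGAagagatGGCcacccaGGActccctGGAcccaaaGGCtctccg
The printed exons were picked to show an unbroken repeat, or in Col4a1 an interruption, so these traits are not results. Those of the fibrillar chains also had to be 54 bases long, and that of Col6a1 to have a set length, 54 bases among them. The first 5 exons are thus 54 bases long and hold 6 triplets of codons, each opening with glycine. In Col6a1, 3 of 35 coding exons have that length. The Col4a1 exon is 192 bases long and holds 7 such triplets, then 7 codons outside the repeat, then 12 more triplets.

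Coding exons of exactly 54 bases made up 305 of 649 coding exons (47.0%) in the fibrillar genes and 12 of 296 (4.05%) in the type IV genes. They were 152 of 1059 (14.4%) in the 27 genes of other types. Within these they were 17 of 217 (7.83%) in the type VI genes and 109 of 432 (25.2%) in the 9 fibril-associated genes, such as Col12a1 and Col14a1. In all other nuclear protein-coding genes they were 873 of 195600 (0.446%). The longest uninterrupted run of GGN triplets was 337 to 344 triplets in the 9 chains of types I, II, III, V and XI. It was 216 in Col24a1 and 217 in Col27a1, and 39 to 66 in the type IV chains, whose repeat was split into a median of 24.5 runs of 4 or more triplets. Type VI chains had a longest run of 37 to 87 triplets and a median of 3 runs of 4 or more triplets. Every one of the 44 chains had a run of at least 10 triplets, the shortest being 23 in Col26a1, against 50 of 21466 other genes (0.233%).

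**Figure D1:**
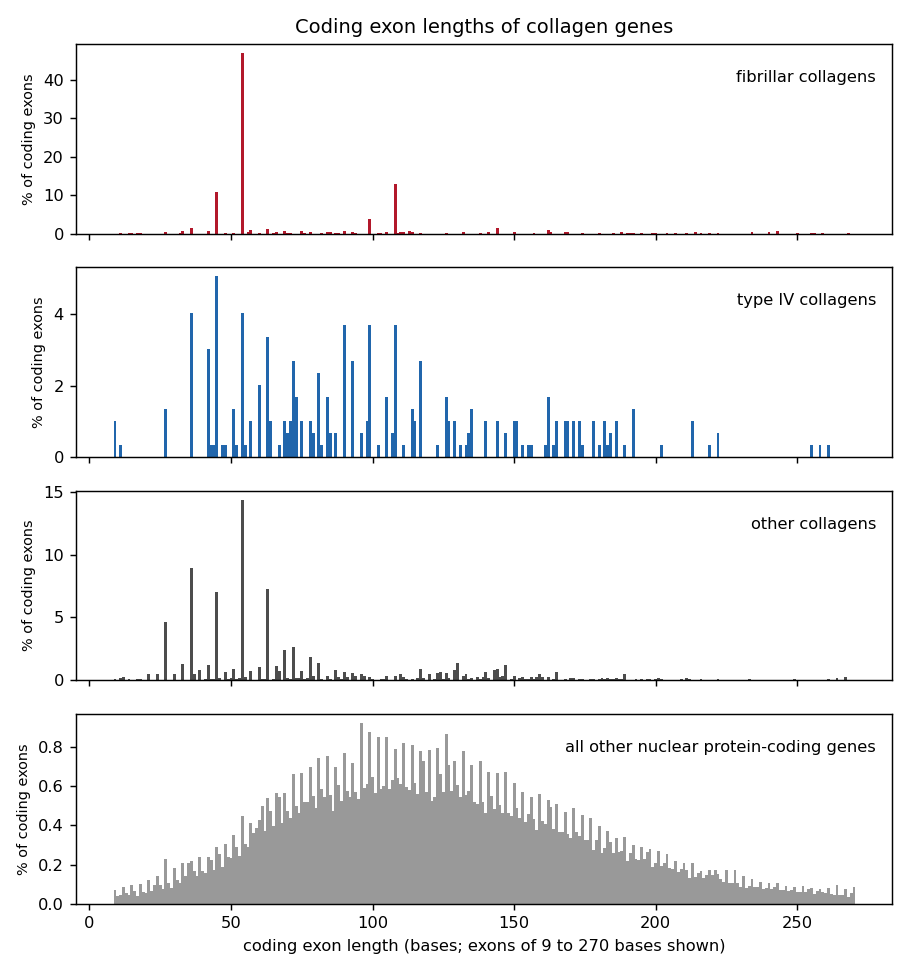
Length of coding exons (x axis, bases) as a percent of the coding exons of each set (y axis, different scale in each panel) for fibrillar, type IV and other collagen genes and all other nuclear protein-coding genes. The fibrillar panel has its highest bar at 54 bases (47.0% of exons), and so has the panel of other collagen genes (14.4%). At that length stand 4.05% of exons in type IV genes and 0.446% in all other nuclear protein-coding genes.

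At a TPM (the share of all transcripts on a fixed scale, corrected for transcript length) of 1 or more in both libraries, 25 of the 44 chains were detected (56.8%), against 9937 of 22015 nuclear protein-coding genes (45.1%). Mean levels reached 100 TPM or more in 3 chains, lay between 10 and 100 in 10, between 1 and 10 in 12, and below 1 in 19. Collagen transcripts summed to 1985 TPM in animal 1 and 1381 in animal 2, which was 0.511% and 0.340% of nuclear protein-coding TPM (0.426% ± 0.121, SD, n = 2). The leading 8 chains held 92.4% and 89.8% of collagen TPM. Ranked by TPM, the 44 chains stood in nearly the same order in both animals (Spearman's rho 0.995 across genes, which are not independent replicates).

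**Figure D2:**
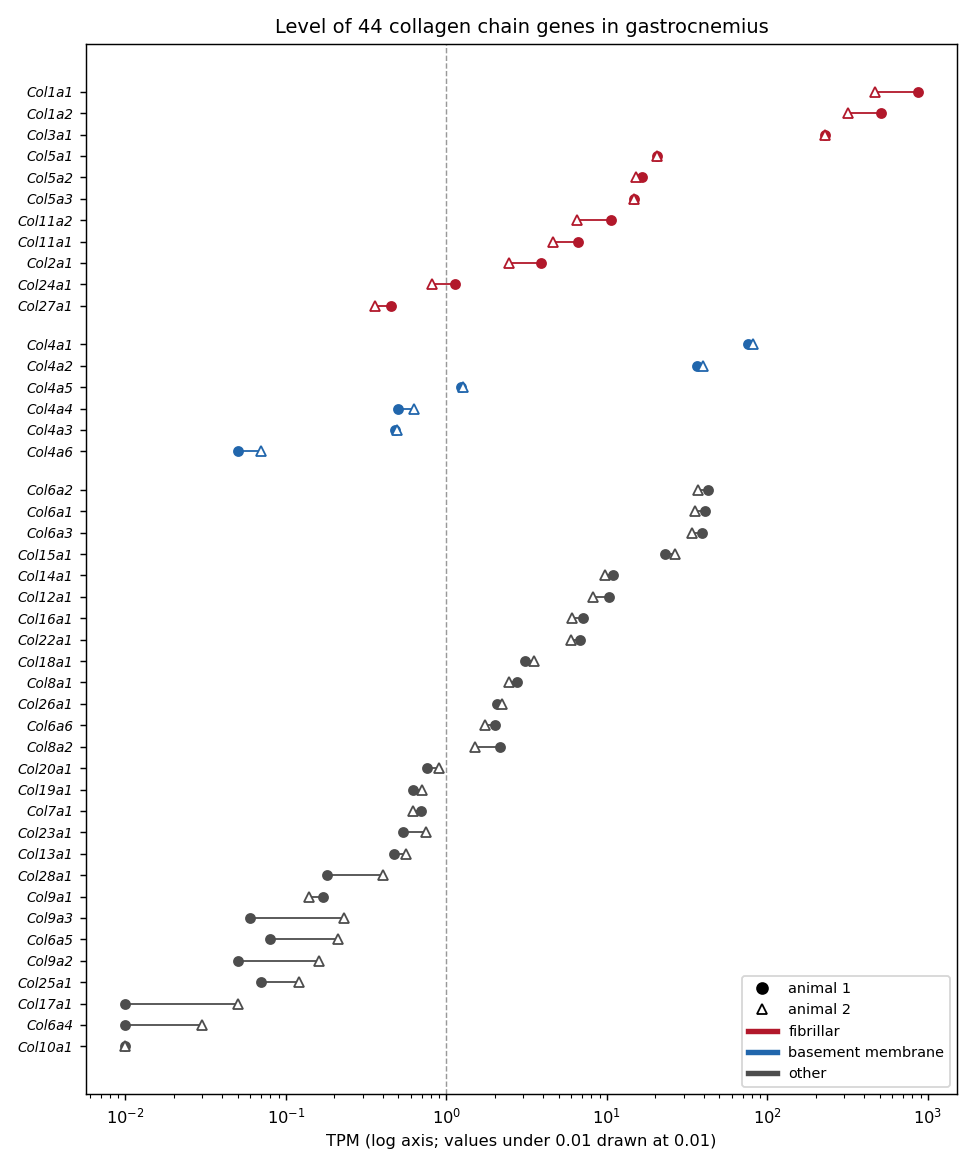
TPM of the 44 collagen chains (x axis, log scale; filled circles animal 1, open triangles animal 2), grouped as fibrillar, basement membrane and other and ordered by mean; values under 0.01 are drawn at 0.01 and the dashed line marks 1 TPM. Col1a1, Col1a2 and Col3a1 lie above 100 TPM in both animals, and of these Col1a1 shows the widest gap (864 and 469).

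Type I collagen, the main component of tendon and muscle connective tissue, had the highest level. Col1a1 (chr11:94936224-94953042, plus strand) was at 864 TPM in animal 1 and 469 in animal 2, rank 46 among nuclear protein-coding genes by its mean of 667 ± 279 (SD, n = 2). Col1a2 (chr6:4504814-4541544, plus), the partner chain of the same trimer, was at 508 and 316 TPM (rank 93). Both type I chains were higher in animal 1. Col3a1 (chr1:45311538-45349706, plus), which forms thin fibrils with type I, was at 229 TPM in each animal (rank 173). Its levels lay together where those of the type I chains lay apart.

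Types V and XI are minor fibrillar collagens that are built into type I or type II fibrils and set their diameter. Col5a1 was at 20.4 TPM in both animals, Col5a2 at 16.6 and 15.2, and Col5a3 at 14.7 and 14.8. These 3 type V chains lay close together and differed between animals by less than 1.5 TPM. Col11a2 was at 10.6 and 6.54 TPM and Col11a1 at 6.64 and 4.59. Col2a1, the cartilage fibril chain, was at 3.91 and 2.45. The chains of types II and XI were each higher in animal 1. Of the remaining fibrillar chains, Col24a1 passed 1 TPM in animal 1 alone (1.13 and 0.81), and Col27a1 was at 0.45 and 0.36.

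Type IV collagen was carried by its ubiquitous pair. Col4a1 was at 75.1 and 80.7 TPM and Col4a2 at 36.5 and 39.5, so both were slightly higher in animal 2 by TPM. Col4a5, on the X chromosome, followed at 1.23 and 1.27 TPM. The chains best known from kidney basement membrane, Col4a3 and Col4a4, stayed between 0.48 and 0.63 TPM, and Col4a6 had 10 and 9 counts.

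Type VI collagen, mutated in congenital muscular dystrophies, was led by its 3 classical chains. Col6a2 was at 42.7 and 37.1 TPM, Col6a1 at 41.1 and 35.1, and Col6a3 at 39.0 and 33.7. Each was somewhat higher in animal 1, and the 3 levels lay close together in each animal. Among the later-described chains, Col6a6 was at 2.00 and 1.73 TPM, Col6a5 at 0.08 and 0.21, and Col6a4 had 1 count in each library.

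Other detected chains came from small classes. Col15a1, a multiplexin of the basement membrane zone, was at 23.1 and 26.7 TPM, and Col18a1, the source of endostatin, at 3.08 and 3.53. Among the fibril-associated chains, Col14a1 was at 10.9 and 9.67 TPM, Col12a1 at 10.3 and 8.15, Col16a1 at 7.07 and 6.05, and Col22a1, a chain of tissue junctions such as the muscle-tendon junction, at 6.78 and 6.01. The multiplexins were higher in animal 2 by TPM and these 4 fibril-associated chains in animal 1. Col8a1 (2.77 and 2.45), Col8a2 (2.16 and 1.51) and Col26a1 (2.06 and 2.21) completed the detected set.

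The remaining chains did not reach the detection threshold. Col20a1, Col19a1, Col7a1, Col23a1 and Col13a1 had mean levels between 0.515 and 0.83 TPM. Col13a1 and Col25a1 are transmembrane chains that act at the neuromuscular junction. They gave 33 and 47 counts and 9 and 16 counts respectively. The lowest chains were Col10a1 of hypertrophic cartilage, with 0 counts in animal 1 and 1 in animal 2, Col6a4, with 1 count in each, and Col17a1 of epidermal hemidesmosomes, with 2 and 5 counts. A count of 0 allows up to 3 counts, and such low values were not detectable expression at this depth rather than absence.

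By class, fibrillar chains held 84.4% of collagen TPM in animal 1 and 78.2% in animal 2 (81.3% ± 4.37, SD, n = 2). Type IV held 5.74% and 8.88%, and type VI 6.29% and 7.81%. Type I alone accounted for 1372 TPM in animal 1 and 785 in animal 2, or 69.1% and 56.9% of collagen TPM. Collagen TPM outside type I was nearly equal, at 614 and 596. The type I chains thus carried 97.0% of the net difference in summed collagen TPM between the animals. Outside type I the log2 ratio of summed TPM was -0.043, animal 2 over animal 1, where the median protein-coding gene was at 0.12. Chains of low level weigh little in these sums, and Col2a1, Col11a1 and Col11a2 were also lower in animal 2. The shares of the other classes in animal 2 were higher while their own sums differed little.

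**Figure D3:**
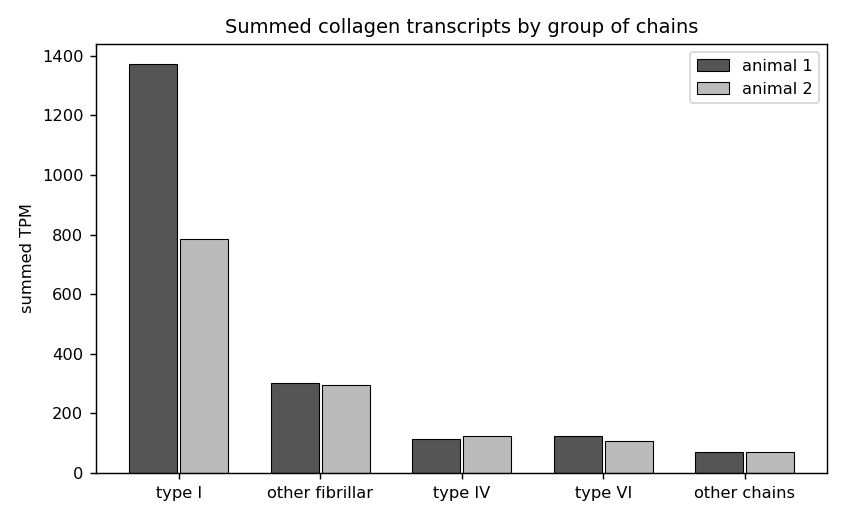
Summed TPM (y axis, from 0) of type I, other fibrillar, type IV, type VI and all other collagen chains (x axis) in animal 1 (dark bars) and animal 2 (light bars); bars are single libraries and carry no error. Type I stands at 1372 in animal 1 and 785 in animal 2, and the other groups are of similar height in both animals.

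Most collagen chains had lower scaled counts in animal 2. The ratios that follow are log2 values, animal 2 over animal 1, of counts scaled by TMM, which balances the libraries on their typical gene, with exact 95% intervals for counting error. With a summed count of 20 or more, 38 of the 44 chains were tested, and 29 had a lower and 9 a higher ratio. At an adjusted p under 0.05 (Benjamini-Hochberg, over 14754 genes), 20 chains were lower in animal 2, where 7.74% of all genes tested were lower, and 1 was higher, where 6.64% were higher. Genes with more counts pass this test at smaller differences, so these numbers also depend on count depth. The median ratio was -0.22 over the 38 chains, against -0.00226 over all genes tested and 0.00271 over 10228 nuclear protein-coding genes of mean TPM 1 or more.

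The lowest ratios were in fibrillar chains. Col1a1 had 144661 and 82850 counts, a ratio of -1.006 (-1.019 to -0.99), and Col1a2 had 75547 and 46363, a ratio of -0.91 (-0.92 to -0.89). Col11a2 had 1700 and 975 counts, with -1.004 (-1.12 to -0.89). Col2a1 was at -0.98 (-1.18 to -0.78; 554 and 323 counts) and Col11a1 at -0.95 (-1.09 to -0.82; 1282 and 761 counts). These 5 chains of types I, II and XI all lay between -1.01 and -0.91 in scaled counts, although their counts differed by more than 100-fold. By ratio of TPM they were lower in animal 2 as well but spread wider, from -0.88 for Col1a1 through -0.70 for Col11a2, -0.68 for Col1a2 and -0.67 for Col2a1 to -0.53 for Col11a1. Chains of types III and V had ratios closer to 0: Col5a2 at -0.22, Col3a1 at -0.18, Col5a1 at -0.17 and Col5a3 at -0.12. All 11 fibrillar chains were below 0 and 9 passed at an adjusted p under 0.05, but by ratio of TPM 3 of the 11, Col3a1, Col5a1 and Col5a3, were above 0 (0.0031 to 0.012), on a scale where the median protein-coding gene was at 0.12.

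A call that also required more than a 2-fold difference was made for 2 chains, Col1a1 and Col11a2, both lower in animal 2, against 1.01% of all genes tested called lower and 0.786% called higher. Both ratios sit at the 2-fold line, their intervals span it, and the calls do not outlast a change of scaling. No chain passed 2-fold with TMM factors from all genes, DESeq2 size factors, spike-in scaling or the ratio of TPM, under which Col1a1 was at -0.99, -0.99, -0.97 and -0.88. The choice between the forms of TMM was made after both results were known.

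The abundant basement membrane chains had ratios near 0. Col4a1 was at -0.08 (-0.11 to -0.04, adjusted p = 0.00141 by the binomial test) and Col4a2 at -0.02 (-0.07 to 0.02), and both turned positive by ratio of TPM (0.10 and 0.11), near the median of 0.12 there. Col4a2 was also just above 0 with spike-in scaling (0.01). Col15a1 was at 0.08 (0.01 to 0.15) and Col18a1 at 0.04 (-0.15 to 0.22), and neither passed.

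Type VI and fibril-associated chains were mixed. Col6a1 was at -0.34, Col6a2 at -0.32, Col6a3 at -0.30 and Col6a6 at -0.27, and all 4 passed. Col6a5 had the opposite sign (0.32) with an interval from -0.54 to 1.23. Col12a1 was at -0.57, Col16a1 at -0.48, Col14a1 at -0.38 and Col22a1 at -0.24, and these also passed at an adjusted p under 0.05. The other tested fibril-associated chains did not: Col9a1 was at -0.20, Col19a1 at 0.07 and Col20a1 at 0.10. The one chain higher in animal 2 at that threshold was Col23a1, a transmembrane chain, with 58 and 105 counts and a ratio of 0.65 (0.18 to 1.14, adjusted p = 0.0427 by the binomial test). Without the filter on low counts that call was lost, and 0 chains were higher. Chains with few counts could not be placed: the interval of Col25a1 ran from -0.64 to 1.99.

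**Figure D4:**
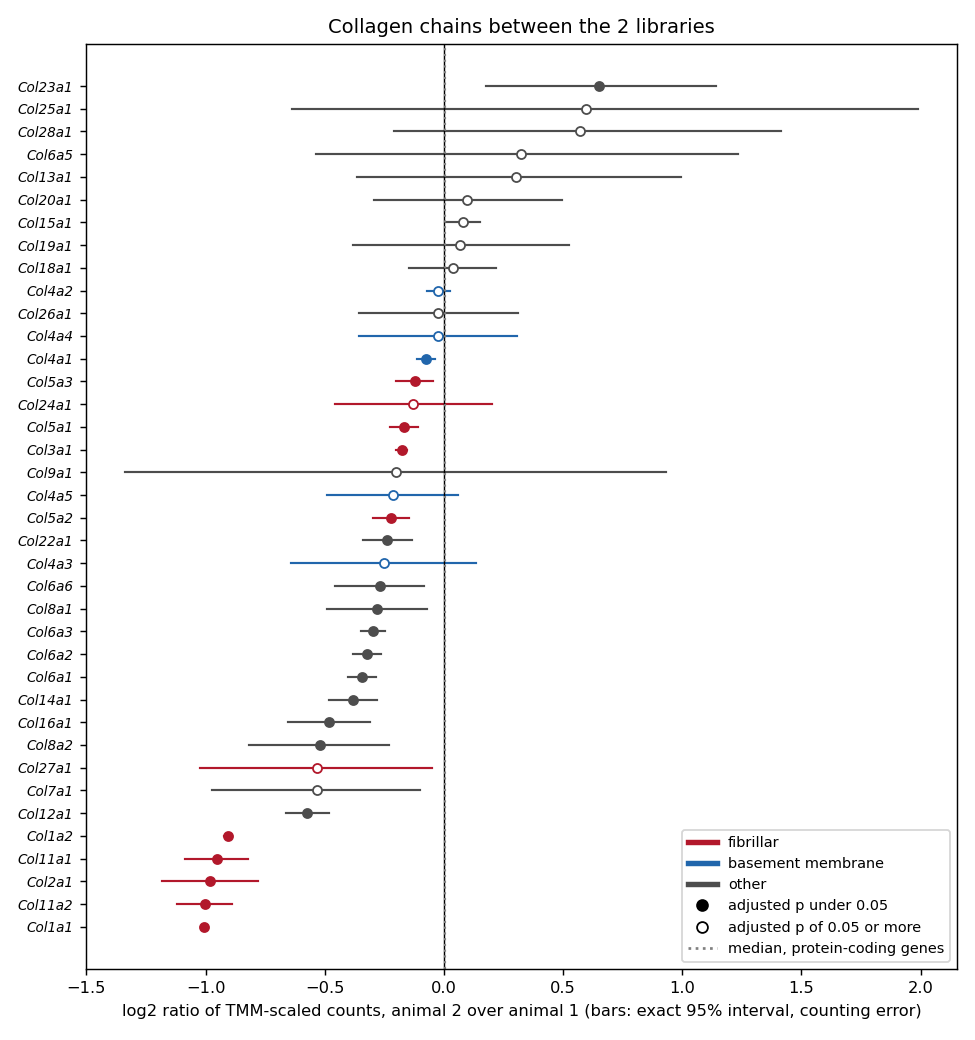
log2 ratio of TMM-scaled counts, animal 2 over animal 1 (x axis), for the 38 collagen chains tested, ordered by ratio (y axis); bars are exact 95% intervals for counting error and filled points have an adjusted p under 0.05. The chains of types I, II and XI form the bottom of the plot (-1.01 to -0.91), and Col4a1, Col4a2, Col15a1 and Col18a1 lie near 0.

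Chains that assemble with each other were compared within each animal by their ratio of TPM. The type I trimer contains 2 Col1a1 products and 1 of Col1a2, and the type IV trimer of muscle 2 of Col4a1 and 1 of Col4a2. The Col1a1 to Col1a2 ratio was 1.70 in animal 1 and 1.48 in animal 2, and that of Col4a1 to Col4a2 was 2.06 and 2.05. The second quantification gave 1.38 and 1.23 for the first pair and 2.34 and 2.39 for the second. In both pairs the chain that the trimer holds in excess had the higher level. Counting only the dominant transcript of each gene, the ratios were 1.73 and 1.64 for type I and 1.52 and 1.46 for type IV. The value of the type IV pair thus depends on which transcripts are counted. Type VI is built from equal numbers of its 3 classical chains. The ratio of Col6a1 to Col6a2 was 0.96 and 0.95, and that of Col6a3 to Col6a1 was 0.95 and 0.96 over all transcripts but 0.53 and 0.56 over the dominant ones. Col11a1 to Col11a2 stood at 0.62 and 0.70, and Col5a1 to Col5a2 at 1.23 and 1.34.

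Some of these partners are neighbours. Col4a1 and Col4a2 lie head to head on chromosome 8 with starts that overlap by 22 bases, Col4a4 and Col4a3 lie head to head on chromosome 1 with 71 bases between them, and Col4a6 and Col4a5 on the X chromosome with 1308. Members of the 3 arrangements differed in how alike their levels were: mean TPM was 77.9 and 38.0 in the first, 0.565 and 0.485 in the second, and 0.06 and 1.25 in the third. Col3a1 and Col5a2 lie tail to tail on chromosome 1, with mean TPM of 229 and 15.9. Whether the authors' counting used strand is not given in the sources used here, so reads from the overlap of Col4a1 and Col4a2 cannot be assigned with certainty.

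For the 13 chains of mean TPM 10 or more, the same protein-coding transcript was the most abundant of its gene in both animals and in both deposited quantifications, in 13 of 13. In the first quantification it held over 90% of the gene's abundance in 8 of them, including Col1a1 (99.3%), Col6a1 (99.7%) and Col4a2 (98.7%). In the second, 3 of those 8 were below that share: Col4a2 at 89.9%, Col5a1 at 89.4% and Col1a2 at 80.1%. Other chains were split over several transcripts. The main transcript of Col6a3 took 56.7% of its gene, and the retained-intron transcripts 19.1%, or 40.0% in the second quantification. The main transcript took 71.8% of Col4a1 (58.2% in the second quantification) and 57.8% of Col14a1.

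Collagen needs enzymes and chaperones in the endoplasmic reticulum, which hydroxylate proline and lysine and hold the chains until they fold. In that list, 22 of 24 genes were detected (45.1% of nuclear protein-coding genes), and the median ratio was -0.06. At an adjusted p under 0.05, 4 were lower in animal 2 (7.74% of all genes tested) and 1 higher (6.64%). The same shares over all genes apply to the lists that follow. P4hb, the shared subunit of prolyl 4-hydroxylase, was at 81.5 and 77.5 TPM, and Hspa5, the general chaperone BiP, at 66.6 and 86.7. Hspa5 was the gene of this list higher in animal 2 (0.26, adjusted p = 1.34e-18 by the binomial test). The 4 lower genes were P3h3 (-0.52), Fkbp10 (-0.44), Creb3l1 (-0.38) and Ppib (-0.26). Serpinh1, the collagen-specific chaperone HSP47, was at 43.8 and 48.0 TPM with a ratio of 0.02, beside -1.01 for Col1a1. Serpinh1 and the 4 lower genes were named after their values were seen.

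Outside the cell, propeptides are cut off and the fibrils are crosslinked. Of 15 such genes, 11 were detected, and the median ratio was -0.29 over the 14 tested. At an adjusted p under 0.05, 7 of the 14 were lower in animal 2 (7.74% of all genes tested) and 0 higher (6.64%). Pcolce, which enhances propeptide cleavage, was at 41.4 and 30.9 TPM (-0.47), and Tgm2, a transglutaminase, at 16.7 and 18.7 (-0.05, adjusted p = 0.619 by the binomial test). Pcolce2 passed 2-fold in this fit (2.39 and 1.33 TPM, ratio -1.001), again at the line. Among 11 proteins that regulate fibril assembly, all 11 were detected and 10 were lower in animal 2 at an adjusted p under 0.05, with a median of -0.30. Sparc, a collagen-binding protein, was at 395 and 317 TPM (-0.44), and Dcn, the proteoglycan decorin, at 127 and 119 (-0.21).

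Collagen receptors and upstream regulators were centred near 0. Of 12 receptor and uptake genes, 8 were detected and 10 tested, with a median of 0.0026. At that threshold 2 of the 10 were lower (7.74% of all genes tested) and 2 higher (6.64%). Itgb1, the integrin beta chain shared by the collagen-binding integrins, was at 62.4 and 69.2 TPM, and Ddr2, a receptor kinase for fibrillar collagen, at 7.82 and 7.15. Of 14 matched upstream regulators, 12 were detected, with 2 lower and 1 higher at that threshold of 13 tested and a median of -0.04. Smad3, a transducer of TGF-beta signals, was at 25.6 and 26.4 TPM (0.11), and Ccn2, a matrix-associated growth regulator, at 15.5 and 10.97 (-0.47).

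Markers of the cell types that the tissue piece could hold also differed between the animals. All 7 tenocyte markers were detected, their summed level was 164 TPM in animal 1 and 123 in animal 2, and 5 of 7 were lower in animal 2 at an adjusted p under 0.05 (7.74% of all genes tested), with a median ratio of -0.40. The counts for the other marker lists use the same threshold, at which 6.64% of all genes tested were higher. The lowest ratios among the 7 tenocyte markers were those of Comp (-0.94) and Fmod (-0.81). Scx had the opposite sign (0.19, 158 and 208 counts) and did not pass. These 3 were named after their values were seen. Fmod is also in the fibril assembly list, and Scx and Mkx in the list of regulators. The 7 fibroblast and fibro-adipogenic markers summed to 188 and 180 TPM, with 3 lower and a median of -0.18. Of these, Dcn and Lum are also in the fibril assembly list.

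Other marker lists lay elsewhere. None of 6 chondrocyte and none of 5 osteoblast markers reached 1 TPM in both animals: Matn1, Bglap, Ibsp and Sp7 had 0 counts, and the chondrocyte list summed to 2.09 and 1.98 TPM. Of its 4 genes with enough counts to test, 2 passed as lower in animal 2, and the median ratio over the 4 was -0.75. Those that passed were Cnmd at -1.74 (30 and 10 counts) and Acan at -0.87 (56 and 35 counts). Matn3 was at -0.63 (27 and 20 counts) and Sox9 had the opposite sign at 0.37 (75 and 112 counts), and neither passed. All 4 were named after their values were seen. Among the collagen chains, Col2a1 was at -0.98 and Col11a1 at -0.95, but Col9a1 was at -0.20 (15 and 15 counts) and did not pass. Col9a2 (3 and 10 counts), Col9a3 (3 and 5) and Col10a1 (0 and 1) had too few counts to test. The 6 endothelial markers summed to 41.0 and 51.6 TPM (median 0.14) and the 6 mural markers to 113 and 132 (median 0.11). Schwann cell markers summed to 54.1 and 109 TPM, 4 of 6 higher in animal 2, and the 3 adipocyte markers to 11.4 and 6.36, 2 of 3 lower. The part that tenocytes, fibroblasts, chondrocytes or any of these cells have in the collagen ratios was not tested. In bulk tissue, fewer cells of a type and less RNA per cell cannot be told apart.

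**Figure D5:**
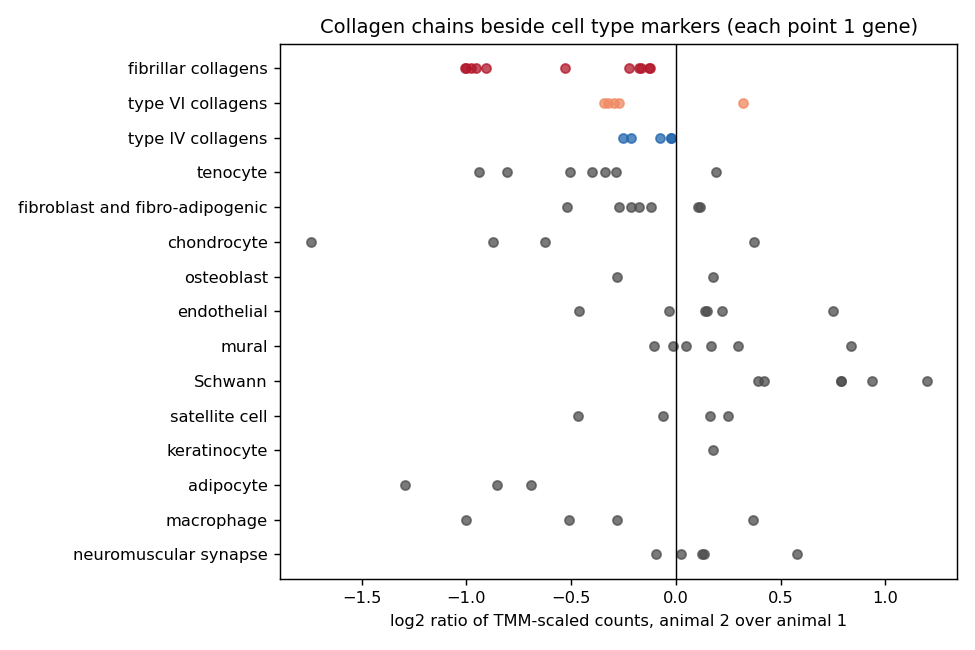
log2 ratio of TMM-scaled counts, animal 2 over animal 1 (x axis), of the tested genes of 3 collagen classes (coloured) and 12 marker lists (grey), 1 point per gene. Fibrillar collagens reach from -1.01 to -0.12, tenocyte markers have a median of -0.40, and the Schwann cell markers lie to the right of 0.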

How the data were processed

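Per the file headers, the deposited tables of each library hold expected counts and TPM for genes and transcripts, with posterior mean TPM and, in percent, the part of each gene assigned to each of its transcripts, under RSEM column names. A second deposited transcript table has estimated counts and TPM under kallisto column names; its transcripts were summed to genes. The text deposited beside the tables gives mm10 and GENCODE M21. The tools, versions and strand use were not given in the sources used here, and the 2 alleles of the cross are not separated.

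Members followed the symbol rule. They, the gene lists and the tests were chosen with earlier results of these data known. All members may be named, and from each pathway list the 2 highest genes and any called. Further genes are stated as named after their values were seen. No match was found for 2 listed symbols. Counts were rounded and scaled by TMM (edgeR 4.0.16, R 4.3.3). Every gene reaching 20 counts over both libraries entered an exact conditional binomial test with Benjamini-Hochberg adjustment and a prior count of 0.5 for ratios. A call needs an adjusted p under 0.05, and over 2-fold where stated. TMM factors were first taken from all genes, which called 0 chains over 2-fold; factors from the tested genes, which called 2, were adopted once both results had been seen, because they match an earlier processing of these data. The test was also run on simulated counts drawn with sampling error alone, which cannot show how it handles further variation between libraries. Intervals cover only counting error: without molecular identifiers, reads are not independent molecules. Coding exons come from the longest annotated coding transcript of each gene in M21. Alternatives were DESeq2 1.42.0 size factors, spike-in scaling, ratio of TPM, no count filter, other thresholds, posterior mean TPM, the second table, and leaving out each animal.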

Additional observations from a re-analysis of the deposited data

How the results depend on the processing

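The number of chains past 2-fold was 2 with TMM factors from the tested genes and without the filter on low counts. It was 0 with TMM factors from all genes, an alternative chosen after seeing the data and in fact the first scaling run, and 0 with DESeq2 size factors, spike-in scaling and the ratio of TPM. It was 1 (Col1a1) in the second quantification, 6 at 1.5-fold and 21 at an adjusted p alone. At an adjusted p under 0.05, 16 to 20 chains were lower and 0 to 5 higher over the scalings, the filter and the second quantification, with 5 higher by ratio of TPM. The split of the 38 tested chains was 29 lower and 9 higher, but 20 lower and 18 higher by ratio of TPM, where all 5 tested type IV chains were above 0 and the median protein-coding gene was at 0.12. The median over chains ranged from -0.22 to -0.14 over all scalings. The collagen share was 1.05% of protein-coding expected counts in place of 0.426% of TPM. Leaving out an animal gave collagen shares of 0.340% to 0.511%, fibrillar shares of 78.2% to 84.4%, type IV shares of 5.74% to 8.88%, type VI shares of 6.29% to 7.81% and 25 to 26 detected chains. In the second quantification, 1 of 9 pair ratios stayed within 1 SD of its value over the 2 animals, and 2 changed sign on the log2 scale: Col6a3 to Col6a1 from -0.067 to 0.028, and Col4a3 to Col4a4 from -0.21 to 0.049; the cause was not tested. No paired analysis was possible because the series has 1 group. Depth limits the chains with fewer than 20 summed counts, 6 of 44, which were not tested.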
